A study of Arabidopsis thaliana with 8 samples.

Results

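The arrays of the sdg8 single mutant of Arabidopsis thaliana were set directly against those of the sdg26 single mutant, across all genes. The comparison used 4 of the 8 arrays of the series, 2 of sdg8 and 2 of sdg26, chosen by their sample titles. It asked which transcripts stood at different levels when one or the other of these genes was mutated, which the study's title speaks of as overlapping and antagonistic effects. The remaining 4 arrays, 2 of the sdg8 sdg26 double mutant and 2 of wild type, entered the estimate of the spread and are given beside the results as points of orientation.

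All samples were total RNA of the aerial part of 6-day-old seedlings, kept at 22 °C in a cycle of 16 h of light and 8 h of darkness. The 4 genotypes were sdg8, sdg26, sdg8 sdg26 and the wild-type accession Col. The alleles are not given in the labels, nor whether a mutant was represented by 1 line. The series text mentions 2 experiments, each with 3 RNA sets for every genotype, without tying a set to an array, so that the p-values reflect the spread among these samples alone, which may be technical.

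SDG8 and SDG26 encode SET-domain proteins that methylate histone H3, and SDG8 is best known for methylating a lysine of its tail in transcribed genes. Both act on flowering time in opposite ways: plants without SDG8 flower early, with little transcript of the floral repressor FLC, and plants without SDG26 flower late. FLC and its relatives of the MADS-box family keep the activators FT and SOC1 low, so that their loss brings flowering forward.

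A level is given as log2 of the spot signal after each array was scaled to its own 75th percentile, and a difference is the mean of the sdg8 arrays minus the mean of the sdg26 arrays, with its standard error (n = 2 arrays per genotype). A gene is called where the Benjamini-Hochberg adjusted p of limma's moderated test was under 0.05 among 20459 genes tested. Where neither array of a genotype measured a gene well above background, at most a lower bound of its fold can be had. A bound is introduced by the words at least. The difference, error and adjusted p of such a gene take its levels below background as measured. For such a bound each dim array contributed its own signal for the probe or, where that was lower, the weakest signal that counted as well above background on that array.

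Both sdg8 arrays lay on one slide and both sdg26 arrays on another, so that slide and genotype cannot be told apart. The sdg8 sdg26 arrays shared the slide of sdg26, and the wild-type arrays lay on 2 further slides. On the sdg8 arrays 71.9% and 72.7% of probes were well above background, against 79.0% and 78.9% on the sdg26 arrays. The lowest level called well above background was -6.15 and -6.21 on the sdg8 arrays and -7.36 and -7.26 on the sdg26 arrays. Replicates correlated across genes at 0.989 in sdg8 and 0.991 in sdg26, and arrays of different single mutants at 0.975 to 0.982. Leaving out 1 array of either single mutant cut the calls to between 121 and 184, each setting leaving 1 genotype with a lone array that is assumed to vary like the others.

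Each mutated gene had a low level in its own mutant. SDG8 was at -3.58 and -3.22 on the sdg8 arrays, -0.38 and -0.49 on the sdg26 arrays, -2.71 and -2.95 on the sdg8 sdg26 arrays and -0.63 and -0.36 on the wild-type arrays. SDG26 was at -1.07 and -1.0 on the sdg8 arrays, -5.40 and -5.98 on the sdg26 arrays, -4.00 and -5.00 on the sdg8 sdg26 arrays and -1.09 and -1.04 on the wild-type arrays. Each gene was thus low on the arrays of its own mutant and of the double mutant and near wild type in the other single mutant, and the groups did not overlap. SDG8 was 7.82-fold lower in sdg8 than in sdg26 (-2.97 ± 0.18, adjusted p = 0.00108), and SDG26 25.2-fold higher (4.66 ± 0.33, adjusted p = 0.00182). Of 15 SET-domain methyltransferase genes measured, these were the only members called (3.16% of all genes were). Both are the mutated genes that define the comparison, so that their calls are no result about the family. ATX4 and ATX3, relatives of the trithorax group, differed by 0.39 ± 0.12 (adjusted p = 0.164) and 0.31 ± 0.12 (adjusted p = 0.273). The labels do not place the probes relative to the mutations.

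**Figure D1:**
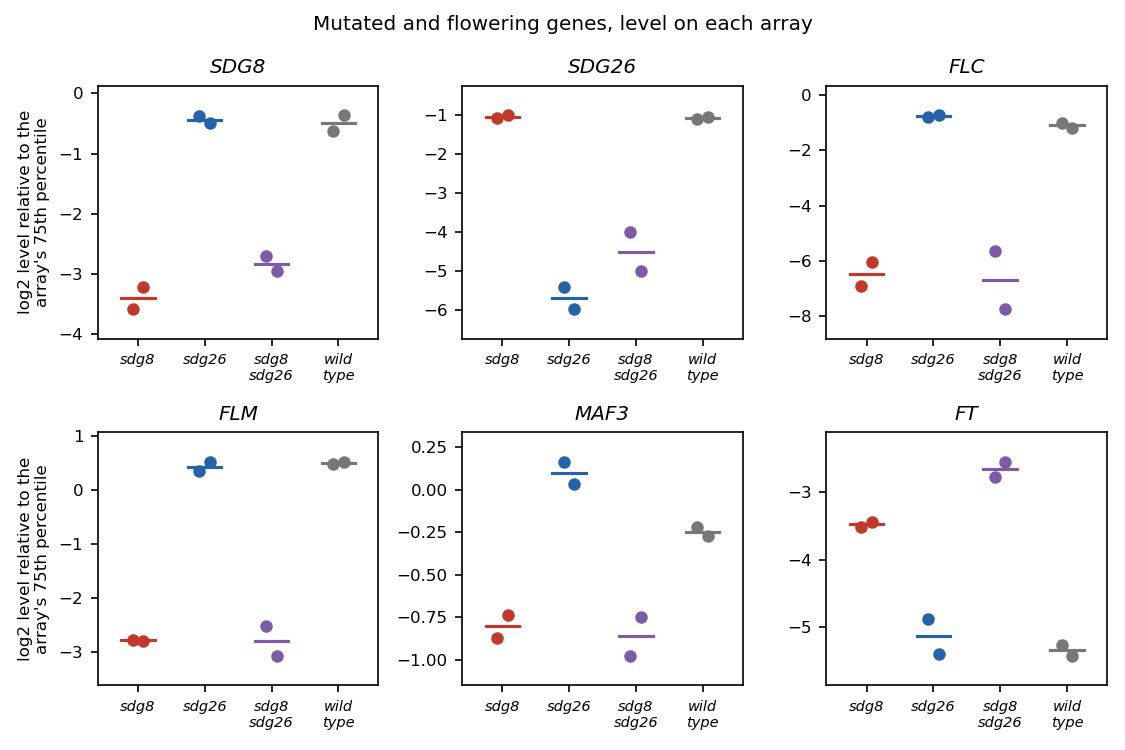
Level of SDG8, SDG26, FLC, FLM, MAF3 and FT on each array, in log2 relative to the array's 75th percentile, with a point for each array, a line for the mean of the 2 arrays and a separate vertical scale in each panel. FLC, FLM and MAF3 are low on the sdg8 and sdg8 sdg26 arrays and high on the sdg26 and wild-type arrays, and FT is the other way round.

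Between sdg8 and sdg26, 647 genes (3.16% of those tested) were called. In sdg8, 117 of them (0.572%) were higher and 530 (2.59%) lower than in sdg26, so that 81.9% of the calls were lower in sdg8. The median difference was 1.1 among the genes higher in sdg8 and -1.24 among those lower, against -0.02 over all genes. At least 2-fold differences made up 67 of the higher and 361 of the lower calls. In 645 of the 647 genes the arrays of the 2 genotypes did not overlap. Over all genes tested, 21.5% had both sdg8 arrays above both sdg26 arrays and 28.5% had them below.

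The calls lay mostly among dim genes. Among the 5115 genes with the lowest levels, 1.49% were called higher and 6.65% lower in sdg8, and among the 5115 with the highest levels 0.0587% and 0.274%. In 153 of the 530 genes lower in sdg8 neither sdg8 array measured the transcript well above background, and in 11 of the 117 higher genes neither sdg26 array did. Counting only genes well above background on all 4 arrays left 100 higher and 358 lower. The split by direction changed with the filter on dim probes: with no filter 783 genes were higher and 514 lower in sdg8 among 25381 genes. The filter rests on the same measure as the signal floor, which was higher on the sdg8 arrays. The part of the floor or of the filter in the split was not tested. The called genes lay on all 5 chromosomes, at 2.92% to 3.47% of the genes tested on each.

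**Figure D2:**
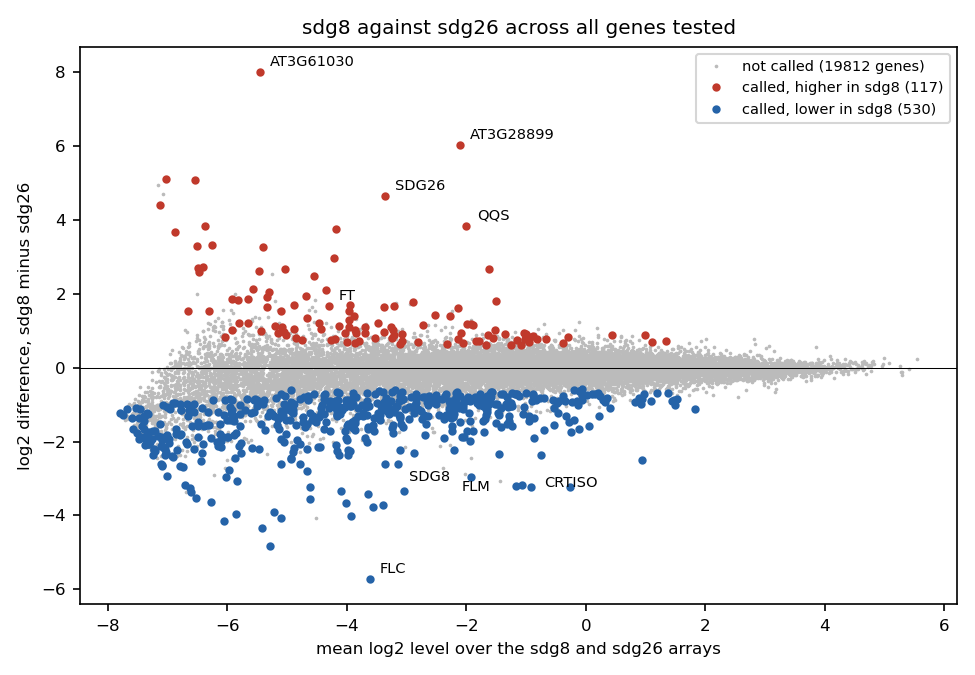
Log2 difference, sdg8 minus sdg26, against the mean log2 level over the 4 sdg8 and sdg26 arrays, for 20459 genes, with called genes in colour. The 117 genes called higher and the 530 called lower lie mostly at levels under 0, and FLC and AT3G61030 lie at the lower and upper ends of the differences.

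Floral repressors were among the genes with large differences between the mutants. FLC, the central MADS-box repressor of the vernalization pathway, was at -6.90 and -6.05 on the sdg8 arrays, where it was not well above background, and at -0.80 and -0.72 on the sdg26 arrays. It was at -5.65 and -7.77 on the sdg8 sdg26 arrays and -1.0 and -1.19 on the wild-type arrays. FLC was at least 40.5-fold lower in sdg8 than in sdg26 (-5.72 ± 0.63, adjusted p = 0.00751), and the double mutant lay with sdg8. FLM, a relative that represses flowering with SVP, was at -2.77 and -2.79 on the sdg8 arrays, 0.36 and 0.52 on the sdg26 arrays, -2.51 and -3.07 on the sdg8 sdg26 arrays and 0.49 and 0.53 on the wild-type arrays. It was 9.29-fold lower in sdg8 (-3.22 ± 0.19, adjusted p = 0.00104), and its 2 sdg8 arrays lay far below both sdg26 arrays. Among the 50 measured genes nearest to SDG8 in chromosome order FLM was the 1 called, and among the 50 nearest to SDG26 it was OPR1, an oxophytodienoate reductase gene named here after its value was seen, a share of 2% in each case against 3.16% over all genes.

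MAF3, of the same MADS-box clade, was at -0.87 and -0.74 on the sdg8 arrays, 0.16 and 0.03 on the sdg26 arrays, -0.98 and -0.75 on the sdg8 sdg26 arrays and -0.22 and -0.27 on the wild-type arrays. It was 1.87-fold lower in sdg8 (-0.90 ± 0.13, adjusted p = 0.0203), with the sdg8 arrays below and the sdg26 arrays above wild type. Of 18 floral repressors measured, these 3 were lower and 0 higher, where 2.59% and 0.572% of all genes were, with a median difference of -0.01. The other clade members were chosen after their values were seen. MAF4 was at -2.71 and -2.63 on the sdg8 arrays, -3.20 and -3.36 on the sdg26 arrays, -4.18 and -5.07 on the sdg8 sdg26 arrays and -0.69 and -0.52 on the wild-type arrays. MAF5 was at -3.55 and -3.73 on the sdg8 arrays, -3.49 and -3.59 on the sdg26 arrays, -3.58 and -3.36 on the sdg8 sdg26 arrays and -2.13 and -2.47 on the wild-type arrays. Both genes were thus below wild type on the arrays of both single mutants. Between the mutants MAF4 differed by 0.61 ± 0.27 (adjusted p = 0.325) and MAF5 by -0.10 ± 0.16 (adjusted p = 0.821). MAF2 differed by -0.04 ± 0.13 (adjusted p = 0.911).

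FT, a mobile signal for flowering that these repressors hold down, was at -3.52 and -3.44 on the sdg8 arrays, -4.88 and -5.39 on the sdg26 arrays, -2.77 and -2.55 on the sdg8 sdg26 arrays and -5.26 and -5.42 on the wild-type arrays. FT was 3.16-fold higher in sdg8 than in sdg26 (1.66 ± 0.19, adjusted p = 0.00898), and the sdg26 arrays lay close to wild type. SOC1, another MADS-box activator, was at 1.79 and 2.35 on the sdg8 arrays, 1.24 and 1.53 on the sdg26 arrays, 1.75 and 1.77 on the sdg8 sdg26 arrays and 1.22 and 1.76 on the wild-type arrays. Its sdg8 arrays lay above its sdg26 arrays, but the difference of 0.68 ± 0.25 did not pass the test (adjusted p = 0.227). Of 18 floral activators measured, FT was the only one called (3.16% of all genes were), and the median difference of the list was -0.24. AGL42, a relative of SOC1, differed by 1.58 ± 0.36 (adjusted p = 0.0766), and SPL15 of the age pathway by -0.60 ± 0.18 (adjusted p = 0.146).

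Over all 20459 genes tested, 3.16% were called and 3434 had an unadjusted p under 0.05. Among 26 regulators of FLC, limma's test called 0, with 1 at an unadjusted p under 0.05, and the median difference was 0.05. PIE1, of the SWR1 chromatin remodelling complex, differed by 0.55 ± 0.12 (adjusted p = 0.0732) and VRN1, a vernalization factor, by -0.17 ± 0.11 (adjusted p = 0.527). Of 8 genes of floral organ identity measured, 0 were called and 2 had an unadjusted p under 0.05. SEP4, a MADS-box cofactor in flowers, differed by -0.78 ± 0.16 (adjusted p = 0.0566). The FLC call was lost without sdg8 replicate 1 or either sdg26 array (adjusted p 0.0502 to 0.0599), the FT call without either sdg8 array (0.0549 to 0.0600) and the MAF3 call without any 1 of the 4 single-mutant arrays (0.0814 to 0.119). The SDG8, SDG26 and FLM calls were kept without any 1 array.

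AT3G61030 and AT3G28899 stood out among the genes higher in sdg8. AT3G61030 was at -1.53 and -1.40 on the sdg8 arrays, -9.38 and -9.55 on the sdg26 arrays, -2.88 on both sdg8 sdg26 arrays and -8.62 and -8.21 on the wild-type arrays. It was at least 57.6-fold higher in sdg8 than in sdg26, where it was not well above background (8.00 ± 0.17, adjusted p = 1.13e-05). AT3G28899 was at 0.93 and 0.87 on the sdg8 arrays, -4.88 and -5.36 on the sdg26 arrays, 1.33 and 1.43 on the sdg8 sdg26 arrays and -6.60 and -7.06 on the wild-type arrays. It was 65.0-fold higher in sdg8 (6.02 ± 0.21, adjusted p = 0.000139). Both transcripts were far higher on the sdg8 and sdg8 sdg26 arrays than on the others, with the sdg26 level of AT3G28899 above that of wild type.

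QQS, a gene found only in Arabidopsis thaliana that affects the balance of starch and protein, was at -0.33 and 0.16 on the sdg8 arrays, -4.09 and -3.75 on the sdg26 arrays, 2.03 and 1.87 on the sdg8 sdg26 arrays and -4.75 and -4.53 on the wild-type arrays. QQS was 14.3-fold higher in sdg8 than in sdg26 (3.83 ± 0.21, adjusted p = 0.000714), and its level in the double mutant exceeded that of either single mutant. AT2G05915 was at -3.75 and -3.80 on the sdg8 arrays, -7.02 and -7.07 on the sdg26 arrays, -3.63 and -3.27 on the sdg8 sdg26 arrays and -6.13 and -6.26 on the wild-type arrays. It was 9.64-fold higher in sdg8 (3.27 ± 0.15, adjusted p = 0.000502), and 1 of the 2 sdg26 arrays measured it above background.

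ST4A and AT5G37280 were higher on the sdg8 arrays than on any other array. ST4A, a sulfotransferase gene, was at -5.29 and -3.65 on the sdg8 arrays, -9.64 and -9.55 on the sdg26 arrays, -9.21 and -9.30 on the sdg8 sdg26 arrays and -6.26 and -8.30 on the wild-type arrays. It was at least 7.15-fold higher in sdg8 than in sdg26 (5.13 ± 0.71, adjusted p = 0.0154), and wild-type replicate 1 lay closest to the sdg8 arrays. AT5G37280 was at -4.32 and -3.67 on the sdg8 arrays and below background on both sdg26 arrays, which made it at least 9.98-fold higher in sdg8 (5.09 ± 0.45, adjusted p = 0.00417). AT5G37280 was at -9.21 and -9.32 on the sdg8 sdg26 arrays and at -8.78 and -7.79 on the wild-type arrays. These levels, like those of sdg26, lay under the lowest level counted as above background on their arrays. That level was -6.90 and -7.21 in the double mutant and -6.86 and -6.06 in wild type. The order of these genotypes is thus not known.

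The other large rises belonged to transcripts that were not well above background in sdg26. They were AT2G24780, AT5G39493, AT3G54530, AT2G19960 and AT3G27473, with bounds from 4.82-fold to 7.29-fold and adjusted p from 0.00818 to 0.0459. The ST4A call was lost without sdg8 replicate 2 or either sdg26 array (adjusted p 0.0723 to 0.0991), that of AT2G24780 without sdg8 replicate 1 or either sdg26 array (0.0553 to 0.0637), and those of AT5G39493 and AT3G54530 without either sdg8 array or sdg26 replicate 1 (0.0843 to 0.133). The AT2G19960 call was lost without any 1 of the 4 single-mutant arrays (0.0599 to 0.102), and that of AT3G27473 without any 1 array other than sdg26 replicate 1 (0.0595 to 0.189). Those of AT3G61030, AT3G28899, AT5G37280, QQS and AT2G05915 were kept without any 1 array.

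FLC was followed, among genes lower in sdg8, by loci for which the gene table used here gives no name. AT4G19865 was at -8.29 and -7.11 on the sdg8 arrays, -2.97 and -2.79 on the sdg26 arrays, -6.27 and -6.92 on the sdg8 sdg26 arrays and -3.11 and -3.10 on the wild-type arrays. Its next neighbour by number, AT4G19870, was at -6.05 and -5.83 on the sdg8 arrays, -2.02 and -1.84 on the sdg26 arrays, -4.59 and -5.70 on the sdg8 sdg26 arrays and -1.76 and -1.78 on the wild-type arrays. In both, the sdg26 arrays lay at the level of wild type and the double mutant lay nearer to sdg8. AT4G19865 was at least 9.84-fold lower in sdg8 than in sdg26 (-4.82 ± 0.38, adjusted p = 0.00245) and AT4G19870 was 16.1-fold lower (-4.01 ± 0.33, adjusted p = 0.00259). Only 1 of the 2 sdg8 arrays measured AT4G19870 well above background.

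AT3G26922 and AT3G26930, a further pair of close numbers, were lower in sdg8 by -3.91 ± 0.20 and -3.66 ± 0.30 (adjusted p = 0.000576 and 0.00254), at least 7.51-fold and at least 12.7-fold. AT5G42280 had the smallest error of the 12 largest falls, with -8.15 and -8.04 on the sdg8 arrays, -4.43 and -4.49 on the sdg26 arrays, -7.66 and -7.80 on the sdg8 sdg26 arrays and -4.49 and -4.66 on the wild-type arrays (difference -3.64 ± 0.13, adjusted p = 0.000139). Neither sdg8 array measured it well above background, so that its difference and small error rest on levels not measured there. Its level was at least 3.3-fold lower in sdg8. AT3G52680, AT4G00160 and AT4G25020, also below background in sdg8, were at least 8.71-fold, 4.58-fold and 7.57-fold lower. AT5G56380 was 13.7-fold lower (-3.77 ± 0.38, adjusted p = 0.00572), and 1 of the 2 sdg8 arrays measured it well above background.

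AT1G03990 had the largest error of these 12 (-3.97 ± 0.68, adjusted p = 0.0318), with -7.36 and -8.31 on the sdg8 arrays and -2.89 and -4.85 on the sdg26 arrays. Among the largest falls its call was lost without either sdg8 array or sdg26 replicate 1 (adjusted p 0.0885 to 0.146), that of AT4G25020 without either sdg26 array (0.0552 to 0.0572) and that of AT5G56380 without sdg26 replicate 1 (0.0520). Apart from FLC, the others kept their calls without any 1 array.

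**Figure D3:**
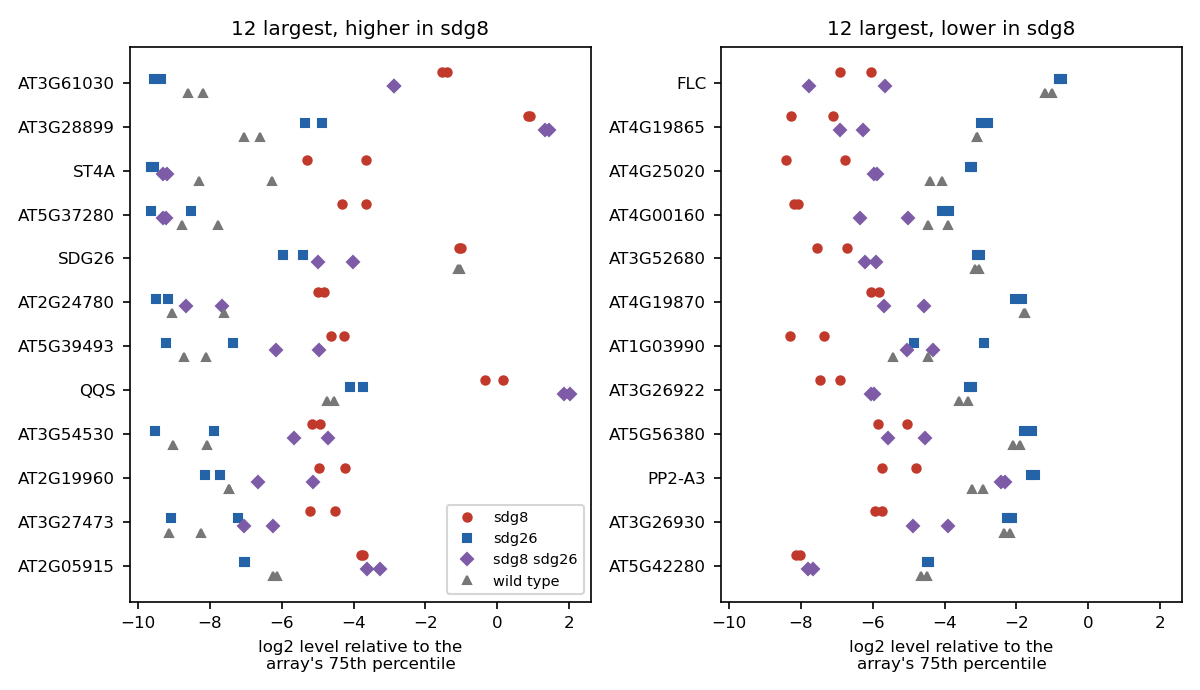
Levels, in log2 relative to the array's 75th percentile, of the 12 genes with the largest positive (left) and the 12 with the largest negative (right) difference between sdg8 and sdg26, with a point for each array of sdg8, sdg26, sdg8 sdg26 and wild type. The wild-type points of AT4G19865, AT3G26922 and FLC lie near those of sdg26. The double mutant lies nearer to sdg8 for FLC and QQS. For ST4A and AT5G37280 the double mutant and sdg26 are both below background, and for AT5G37280 wild type is too.

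The wild-type level lay nearer to sdg26 than to sdg8 in 102 of the 117 genes higher in sdg8 (87.2%) and in 435 of the 530 lower genes (82.1%), against 55.7% of the genes not called, taking levels below background as measured. The median difference from wild type was 1.09 in sdg8 and -0.13 in sdg26 for the higher genes, and -0.96 in sdg8 and 0.24 in sdg26 for the lower genes. These differences share the wild-type arrays and were not tested here. The double mutant lay nearer to sdg8 in 74 of the higher genes (63.2%) and 347 of the lower genes (65.5%), against 49.1% of the genes not called.

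In a smaller number of genes the mutants lay on either side of wild type, taking levels below background as measured. The wild-type mean was between those of the mutants and at least 0.5 from each in 10 of the higher and 81 of the lower genes. In 6 of these 10 and 48 of these 81 a mutant was below background on both arrays, so that its distance from wild type was not measured. Its order with wild type is not known either where wild type lay under the lowest level counted as above background there. The other 4 and 33 were measured on at least 1 array of each mutant, and 3 and 33 of them on both wild-type arrays. PP2-A3, named as a phloem protein gene in the table used here, was at -4.80 and -5.73 on the sdg8 arrays, -1.60 and -1.48 on the sdg26 arrays, -2.31 and -2.42 on the sdg8 sdg26 arrays and -2.93 and -3.25 on the wild-type arrays. It was 13.2-fold lower in sdg8 than in sdg26 (-3.73 ± 0.29, adjusted p = 0.00245), with wild type apart from both and the double mutant between wild type and sdg26. PYL6, an abscisic acid receptor gene, was at -4.52 and -4.57 on the sdg26 arrays, -6.36 and -5.80 on the sdg8 sdg26 arrays and -5.75 and -6.76 on the wild-type arrays, and was not well above background in sdg8. It was at least 3.11-fold lower in sdg8 than in sdg26 (-2.97 ± 0.39, adjusted p = 0.0125). The wild-type mean of PYL6, -6.25, lay under the lowest level counted as above background on the sdg8 arrays, so that its order with sdg8 is not known.

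MSRB8, a methionine sulfoxide reductase gene, was at least 1.63-fold lower in sdg8 (-2.65 ± 0.31, adjusted p = 0.00933) and AT5G44980 at least 2.1-fold lower (-3.19 ± 0.25, adjusted p = 0.00245). Wild type was at -7.40 and -6.36 for MSRB8 and at -6.52 and -6.79 for AT5G44980. These levels lay under the lowest level counted as above background on the sdg8 arrays, so that their order with sdg8 is not known. On the other side of zero stood FUS3, a regulator of seed maturation, at -5.02 and -5.05 on the sdg8 arrays, -7.81 and -7.73 on the sdg26 arrays, -5.45 and -5.32 on the sdg8 sdg26 arrays and -6.19 and -7.41 on the wild-type arrays. FUS3 was at least 4.83-fold higher in sdg8 than in sdg26 (2.73 ± 0.35, adjusted p = 0.0122). It was the only one called of 18 seed maturation genes measured, whose median difference was 0.00 (3.16% of all genes were called). ABI3 and LEC2, other regulators of seed maturation, differed by -0.69 ± 0.31 (adjusted p = 0.330) and -0.36 ± 0.22 (adjusted p = 0.485). AT3G06435 was 4.39-fold higher in sdg8 (2.14 ± 0.30, adjusted p = 0.0154), and another of its probes differed by -0.65. The calls of FUS3, MSRB8 and AT3G06435 were lost without any 1 of the 4 single-mutant arrays (adjusted p 0.0552 to 0.114) and that of PYL6 without sdg8 replicate 2 or either sdg26 array (0.0705 to 0.0881). PP2-A3 and AT5G44980 kept their calls without any 1 array.

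Immune receptor genes of the nucleotide-binding leucine-rich repeat (NLR) class, whose products recognise pathogen effectors inside the cell, were followed in 2 lists. Of 11 genes of the coiled-coil and RPW8 classes measured, 2 were lower and 0 higher, where 2.59% of all genes were lower and 0.572% higher, with a median difference of -0.27 against -0.02 over all genes. RPM1, which recognises bacterial effectors, was at -5.67 and -5.47 on the sdg8 arrays, -3.49 and -3.34 on the sdg26 arrays, -5.01 and -5.26 on the sdg8 sdg26 arrays and -3.55 and -3.33 on the wild-type arrays. ADR1, a helper receptor that acts for several others, was at -2.26 and -2.49 on the sdg8 arrays, -0.92 and -1.08 on the sdg26 arrays, -1.83 and -1.93 on the sdg8 sdg26 arrays and -1.18 and -1.13 on the wild-type arrays. In both, the sdg26 and wild-type arrays were high and the sdg8 and double mutant arrays low. RPM1 was 4.46-fold lower in sdg8 than in sdg26 (-2.16 ± 0.15, adjusted p = 0.00182) and ADR1 2.61-fold lower (-1.38 ± 0.13, adjusted p = 0.00561). ADR1-L2, a related helper, differed by -0.75 ± 0.17 (adjusted p = 0.0788), and RPP8, a receptor for a downy mildew, by -0.69 ± 0.19 (adjusted p = 0.124).

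Of 16 TIR class receptor genes measured, 3 were lower in sdg8 (2.59% of all genes were) and 0 higher, with a median difference of -0.28. RRS1, which carries a WRKY domain and works as a pair with RPS4, was at -2.91 and -2.78 on the sdg8 arrays, -1.39 and -1.35 on the sdg26 arrays, -2.69 and -2.99 on the sdg8 sdg26 arrays and -1.67 and -1.64 on the wild-type arrays. LAZ5 was at -3.13 and -2.89 on the sdg8 arrays, -1.07 and -1.21 on the sdg26 arrays, -3.15 and -3.83 on the sdg8 sdg26 arrays and -1.26 and -1.11 on the wild-type arrays. CHS1, known from a chilling-sensitive mutant, was at -4.71 and -4.60 on the sdg8 arrays, -2.77 and -2.73 on the sdg26 arrays, -3.80 and -4.82 on the sdg8 sdg26 arrays and -2.60 and -2.55 on the wild-type arrays. All 3 were low on every array that carries the sdg8 mutation. They were 2.77-fold (RRS1, -1.47 ± 0.14, adjusted p = 0.00527), 3.66-fold (LAZ5, -1.87 ± 0.23, adjusted p = 0.0107) and 3.75-fold lower (CHS1, -1.91 ± 0.30, adjusted p = 0.0237).

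WRR4, a white rust resistance gene of the same class, lay the other way, at -1.18 and -1.08 on the sdg8 arrays, -1.75 and -1.80 on the sdg26 arrays, -1.93 and -1.90 on the sdg8 sdg26 arrays and -1.26 and -0.99 on the wild-type arrays. Its difference of 0.65 ± 0.13 did not pass the test (adjusted p = 0.0566). The calls of RPM1, ADR1 and RRS1 were kept without any 1 array. That of LAZ5 was lost without sdg8 replicate 1 or either sdg26 array (adjusted p 0.0684 to 0.0753), and that of CHS1 without any 1 of the 4 single-mutant arrays (0.0954 to 0.141).

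In the list of EDS1 and salicylate defence, 3 of 19 genes measured were lower in sdg8 (2.59% of all genes were) and 0 higher, with a median difference of -0.37. PR1, a secreted protein long used as a marker of salicylate defence, was at -5.61 and -4.35 on the sdg26 arrays, -5.45 and -5.70 on the sdg8 sdg26 arrays and -7.22 and -6.68 on the wild-type arrays, and was not well above background on the sdg8 arrays. It was at least 2.29-fold lower in sdg8 than in sdg26 (-3.27 ± 0.39, adjusted p = 0.0100). PR2, a beta-glucanase induced by salicylate, was at -6.02 and -6.16 on the sdg8 arrays, -3.79 and -3.17 on the sdg26 arrays, -3.40 and -4.57 on the sdg8 sdg26 arrays and -5.55 and -5.32 on the wild-type arrays. For both the double mutant lay with sdg26. Wild type lay between the mutants for PR2, and for PR1 it lay under the lowest level counted as above background on the sdg8 arrays, so that its order with sdg8 is not known.

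PR2 was 6.11-fold lower in sdg8 (-2.61 ± 0.38, adjusted p = 0.0181), and 1 of the 2 sdg8 arrays measured it well above background. EDS1, a lipase-like protein that signals for TIR class receptors, was at -1.37 and -1.16 on the sdg8 arrays, -0.58 and -0.22 on the sdg26 arrays, -1.45 and -1.46 on the sdg8 sdg26 arrays and -0.65 and -0.42 on the wild-type arrays, 1.82-fold lower in sdg8 than in sdg26 (-0.86 ± 0.17, adjusted p = 0.0473). For EDS1 the double mutant lay with sdg8, unlike for PR1 and PR2. CBP60G, a regulator of salicylate synthesis, differed by -0.87 ± 0.31 (adjusted p = 0.210). The PR1 call was lost without either sdg8 array (adjusted p 0.0597 to 0.0628), the PR2 call without any 1 of the 4 single-mutant arrays (0.0654 to 0.119), and the EDS1 call without any 1 of the 8 arrays (0.0610 to 0.241).

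Of 26 rapid stress and touch response genes measured, 2 were lower in sdg8 (2.59% of all genes were) and 0 higher, and the median difference of -0.51 was the lowest of the lists used. WRKY46, a transcription factor induced by pathogens, was at -4.76 and -4.54 on the sdg8 arrays, -3.70 and -3.31 on the sdg26 arrays, -3.97 and -4.02 on the sdg8 sdg26 arrays and -4.32 and -3.92 on the wild-type arrays. It was 2.21-fold lower in sdg8 (-1.14 ± 0.19, adjusted p = 0.0309), with wild type between the mutants. ERF104, an ethylene response factor, was 2.1-fold lower (-1.07 ± 0.20, adjusted p = 0.0421). WRKY33 differed by -1.42 ± 0.34 (adjusted p = 0.0812) and ERF6 by -0.89 ± 0.21 (adjusted p = 0.0764). The list's mean level was -3.46 and -3.23 on the sdg8 arrays, -3.10 and -2.57 on the sdg26 arrays, -3.15 and -3.49 on the sdg8 sdg26 arrays and -3.16 and -2.85 on the wild-type arrays. The spread between replicates of that mean was wide in sdg26, the double mutant and wild type alike.

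In the jasmonate list 1 of 25 genes was called lower (2.59% of all genes were) and 0 higher, with a median difference of -0.15. The gene was THI2.1, a thionin (adjusted p = 0.0459). THI2.1 was below background in sdg8. Its sdg26 arrays, at -6.33 and -6.38, lay under the lowest level counted as above background on the sdg8 arrays. No fold can thus be given, and the order of the 2 mutants is not known, although the call was lower. JAZ1, a repressor of jasmonate signalling, differed by -0.82 ± 0.17 (adjusted p = 0.0598). In the heat shock list BIP3, a chaperone of the endoplasmic reticulum induced by unfolded proteins, was the only one called of 13 genes (3.16% of all genes were). BIP3 was at least 2.26-fold lower in sdg8 (-1.57 ± 0.20, adjusted p = 0.0124). HSP18.2, a small heat shock protein, differed by 0.69 ± 0.18 (adjusted p = 0.103). The WRKY46 and BIP3 calls were lost without any 1 of the 4 single-mutant arrays (adjusted p 0.0654 to 0.178), and those of ERF104 and THI2.1 without these or either wild-type array (0.0502 to 0.211).

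Aliphatic glucosinolates are sulphur-rich defence compounds made from methionine. Of 24 genes of their synthesis measured, 3 were lower in sdg8 (2.59% of all genes were) and 0 higher, and the median difference was -0.45. On both sdg8 arrays 20 of the 24 lay below both sdg26 arrays, where 28.5% of all genes did. MAM3, which elongates the side chain, was at -2.55 and -2.76 on the sdg8 arrays, -1.05 and -1.38 on the sdg26 arrays, -0.87 and -1.02 on the sdg8 sdg26 arrays and -2.24 and -2.14 on the wild-type arrays. It was 2.72-fold lower in sdg8 than in sdg26 (-1.44 ± 0.16, adjusted p = 0.00745), and the sdg26 and double mutant arrays were those above wild type.

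CYP79F1, which converts the elongated methionine, was at 1.06 and 1.01 on the sdg8 arrays, 1.73 and 1.71 on the sdg26 arrays, 1.5 and 1.37 on the sdg8 sdg26 arrays and 1.48 and 1.61 on the wild-type arrays (1.61-fold lower, -0.69 ± 0.12, adjusted p = 0.0319). BCAT4, an aminotransferase at the first step, was at 0.43 and 0.29 on the sdg8 arrays, 1.25 and 1.33 on the sdg26 arrays, 0.78 and 0.73 on the sdg8 sdg26 arrays and 0.95 and 1.47 on the wild-type arrays (1.90-fold lower, -0.93 ± 0.18, adjusted p = 0.0474). For these 2 genes the sdg8 arrays were the lowest of all. MYB29, a transcription factor of the pathway, differed by -0.60 ± 0.13 (adjusted p = 0.0576). In the list of indole glucosinolates 0 of 19 genes were called and 3 had an unadjusted p under 0.05 (3434 of all 20459 genes had), with a median difference of -0.19. CYP81F2 differed by -1.76 ± 0.59 (adjusted p = 0.188). The MAM3 call was lost without sdg8 replicate 2 or sdg26 replicate 1 (adjusted p 0.0534 to 0.0540), that of CYP79F1 without any 1 of the 4 single-mutant arrays (0.140 to 0.182), and that of BCAT4 without these or either sdg8 sdg26 array (0.0725 to 0.238).

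The list of methionine metabolism and MRD1 held 1 gene higher and 1 lower in sdg8 among 20 measured (0.572% and 2.59% of all genes). The higher gene was MRD1 itself, put in the list by name with earlier results known. Its call is thus no result about methionine metabolism. HMT3, a homocysteine methyltransferase, was at -3.86 and -3.66 on the sdg8 arrays, -2.57 and -2.33 on the sdg26 arrays, -2.78 and -3.00 on the sdg8 sdg26 arrays and -2.85 and -2.47 on the wild-type arrays, 2.48-fold lower in sdg8 (-1.31 ± 0.18, adjusted p = 0.0152). MRD1, known as a transcript low in a methionine-overaccumulating mutant, was at -3.39 and -3.37 on the sdg8 arrays, -4.47 and -4.19 on the sdg26 arrays, -3.14 and -3.54 on the sdg8 sdg26 arrays and -0.52 and -0.41 on the wild-type arrays. MRD1 was far below wild type on all 6 mutant arrays, and 1.93-fold higher in sdg8 than in sdg26 (0.95 ± 0.17, adjusted p = 0.0390). MS2, a methionine synthase, differed by -0.65 ± 0.16 (adjusted p = 0.0951).

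CRTISO, the carotenoid isomerase, was the only one called of 21 carotenoid and apocarotenoid genes measured, whose median difference was -0.01 (3.16% of all genes were called). It was at -2.73 and -2.33 on the sdg8 arrays, 0.72 and 0.67 on the sdg26 arrays, -2.92 and -4.35 on the sdg8 sdg26 arrays and 0.84 and 0.78 on the wild-type arrays. CRTISO was 9.36-fold lower in sdg8 than in sdg26 (-3.23 ± 0.41, adjusted p = 0.0124), and the sdg26 arrays lay at the level of wild type. D27, an isomerase of strigolactone synthesis, differed by -0.42 ± 0.12 (adjusted p = 0.129).

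The calls of HMT3 and CRTISO were lost without any 1 of the 4 single-mutant arrays (adjusted p 0.0577 to 0.114), and that of MRD1 without these or either wild-type array (0.0609 to 0.180). Of 27 flavonoid and anthocyanin genes, MYB90, a regulator of anthocyanin synthesis, was the only one called (3.16% of all genes were). It was at least 1.34-fold lower in sdg8 (-1.46 ± 0.25, adjusted p = 0.0325), a call lost without either sdg8 array, sdg26 replicate 1 or either wild-type array (0.0530 to 0.153). The list's median was -0.34, with 24 of 27 differences below 0, and TT4, the chalcone synthase, differed by -0.42 ± 0.14 (adjusted p = 0.186).

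In the list of starch metabolism and QQS, 2 of 33 genes measured were higher in sdg8 (0.572% of all genes were) and 0 lower. The median difference of the list was 0.16. QQS was put in the list by name with earlier results known, so that its call is no result about starch metabolism. The other called gene was DPE1, an enzyme of starch breakdown in the chloroplast. DPE1 was at -0.81 and -0.77 on the sdg8 arrays, -1.33 and -1.46 on the sdg26 arrays, -0.79 and -0.69 on the sdg8 sdg26 arrays and -1.06 and -1.15 on the wild-type arrays, 1.52-fold higher in sdg8 (0.60 ± 0.12, adjusted p = 0.0485). Its call was lost without any 1 of the 8 arrays (adjusted p 0.0657 to 0.266). The starch enzymes SEX4 and SEX1 differed by 0.48 ± 0.14 (adjusted p = 0.140) and 0.45 ± 0.17 (adjusted p = 0.257).

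IRT1, the main iron importer of the root epidermis, was the only one called of 20 iron genes, whose median difference was -0.34 (3.16% of all genes were called). It was at -4.99 and -5.17 on the sdg8 arrays, -3.56 and -3.64 on the sdg26 arrays, -2.71 and -3.11 on the sdg8 sdg26 arrays and -3.50 and -3.77 on the wild-type arrays. IRT1 was 2.79-fold lower in sdg8 than in sdg26 (-1.48 ± 0.18, adjusted p = 0.00985), a call lost without any 1 of the 4 single-mutant arrays (0.0502 to 0.0713). BHLH38, a transcription factor of the iron deficiency response, was at -2.41 and -3.54 on the sdg8 arrays, 0.86 and -0.65 on the sdg26 arrays, 0.31 and 0.49 on the sdg8 sdg26 arrays and -0.81 and -2.86 on the wild-type arrays. Its difference of -3.08 ± 0.76 did not pass the test (adjusted p = 0.0909), with replicates more than 1 apart in sdg8, sdg26 and wild type.

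Root tissue could enter such samples, whose label gives the aerial part, and 19 of 22 root markers listed were measured. The filter kept only genes well above background on both sdg8 arrays or both sdg26 arrays. Detection of the measured markers in 1 of these genotypes was thus set by the filter. All 19 were well above background on both sdg26 arrays and 16 on both sdg8 arrays. Whether the samples held root tissue was not tested. Their mean level was -3.33 and -3.40 on the sdg8 arrays and -3.43 and -3.11 on the sdg26 arrays, which overlapped. Of the 19, 0 were called (3.16% of all genes were) and 3 had an unadjusted p under 0.05 (3434 of all 20459 genes had). The median difference of the 19 was 0.00. WOX5, a gene of the root stem cell niche, differed by -0.60 ± 0.14 (adjusted p = 0.0837). The part of root tissue in the IRT1 difference was not tested.

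The brassinosteroid and gibberellin lists held 1 called gene each, near the 3.16% called over all genes. Of 26 brassinosteroid genes IBH1, a helix-loop-helix inhibitor of cell elongation, was the only one called. It was at -0.68 and -0.59 on the sdg8 arrays, -1.57 and -1.24 on the sdg26 arrays, -1.18 and -1.27 on the sdg8 sdg26 arrays and -1.70 and -1.61 on the wild-type arrays, 1.70-fold higher in sdg8 (0.77 ± 0.15, adjusted p = 0.0433). Of 26 gibberellin genes KAO2, an oxidase of gibberellin synthesis, was the only one called. It was at -0.20 and -0.10 on the sdg8 arrays, 0.76 and 0.66 on the sdg26 arrays, 0.09 and 0.19 on the sdg8 sdg26 arrays and 0.50 and 0.57 on the wild-type arrays, 1.82-fold lower in sdg8 (-0.86 ± 0.12, adjusted p = 0.0147). For IBH1 the sdg8 arrays were the highest of the 8, and for KAO2 the lowest. GA20OX1, a later oxidase, differed by -0.70 ± 0.18 (adjusted p = 0.0944). The IBH1 call was lost without any 1 of the 8 arrays (adjusted p 0.0639 to 0.187) and the KAO2 call without any 1 of the 4 single-mutant arrays (0.0745 to 0.101).

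No gene was called among 32 of auxin response, 17 of cytokinin response, 21 of cold and abscisic acid response, 20 of the circadian clock, 35 of the cell cycle and 40 nuclear photosynthesis genes. At an unadjusted p under 0.05, which 3434 of all 20459 genes had, there were 4, 0, 3, 0, 2 and 0 members. The median differences of these lists, in the same order, were -0.13, -0.06, 0.19, 0.04, -0.12 and 0.04. The members with the smallest p were GH3.3, an auxin-conjugating enzyme (-0.54 ± 0.12, adjusted p = 0.0742), ARR16 (-0.29 ± 0.13, adjusted p = 0.340), ABI2, a phosphatase of abscisic acid signalling (0.60 ± 0.18, adjusted p = 0.147), GI (0.33 ± 0.14, adjusted p = 0.309), CYCB1;4 (-0.44 ± 0.12, adjusted p = 0.120) and PETC, of the cytochrome complex (0.31 ± 0.15, adjusted p = 0.376). The photosynthesis genes were bright on every array, with mean levels of 4.5 and 4.57 in sdg8 and 4.33 and 4.65 in sdg26, as the labelled aerial tissue has. All 40 were well above background on the 4 arrays.

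**Figure D4:**
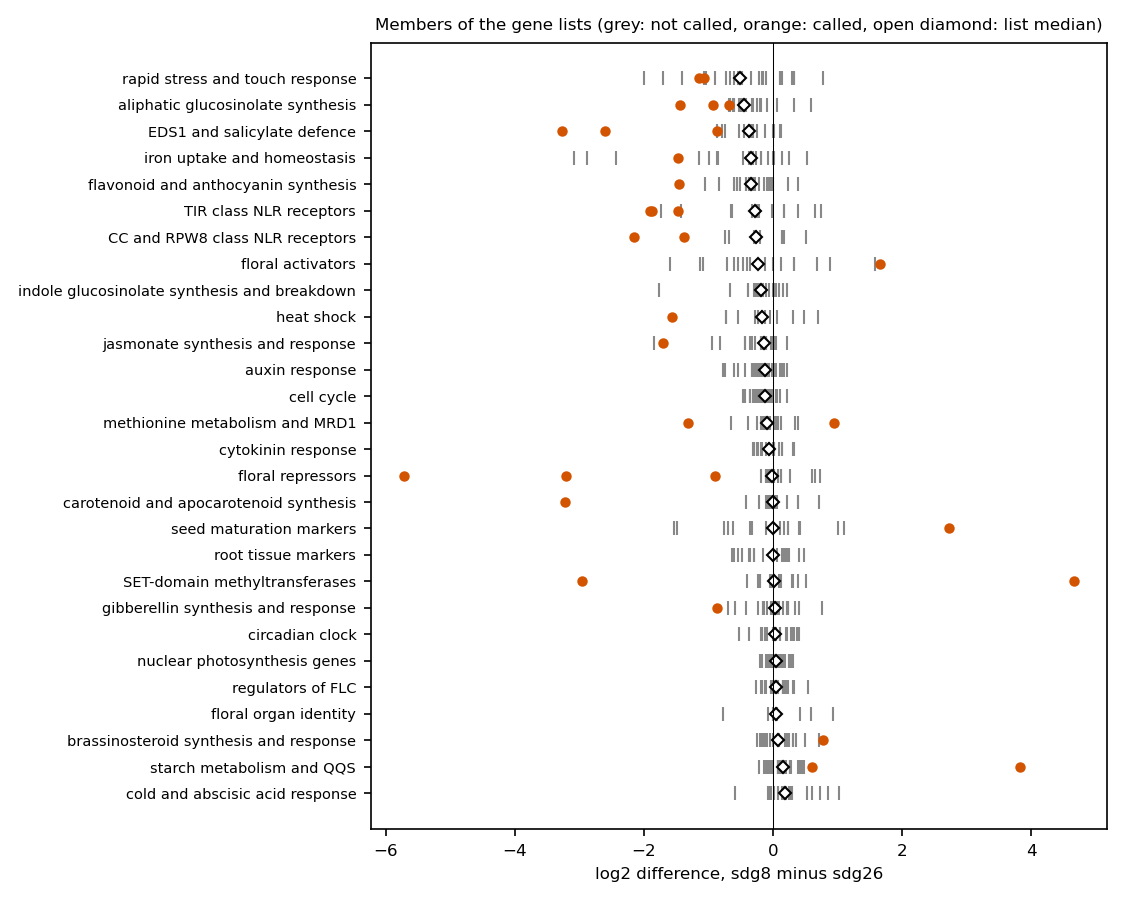
Log2 difference, sdg8 minus sdg26, of every measured member of 28 gene lists, with grey marks for members not called, orange points for called members and an open diamond for the list's median. The lists run down by median, with the rapid stress list at -0.51 on top and the cold and abscisic acid list at 0.19 at the bottom.

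Some called genes lay side by side. Among measured genes in chromosome order, 69 of the 530 lower genes (13.0%) stood in runs of 2 or more, of which 5 held 3 genes, and 6 of the 117 higher genes (5.13%) stood in runs of 2. Of all genes 2.59% were called lower and 0.572% higher, so that these shares are not directly comparable. The share to be met by chance was not tested. On chromosome 3 the run of 3 lower genes was that of the cytochrome P450 genes CYP71B35, CYP71B36 and CYP71B37. CYP71B36 was at -4.52 and -4.38 on the sdg8 arrays, -1.80 and -1.86 on the sdg26 arrays, -3.20 and -3.76 on the sdg8 sdg26 arrays and -2.10 and -1.82 on the wild-type arrays, 6.13-fold lower in sdg8 (-2.61 ± 0.20, adjusted p = 0.00245). Its neighbours CYP71B35 and CYP71B37 were 2.13-fold and 1.77-fold lower (adjusted p = 0.0319 and 0.0258).

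On chromosome 4 EARLI1, a lipid-transfer-like protein gene, stood beside AT4G12490 and AT4G12500. EARLI1 was at -1.55 and -2.08 on the sdg8 arrays, 0.04 and 0.12 on the sdg26 arrays, -0.69 and -0.51 on the sdg8 sdg26 arrays and -0.72 and -0.61 on the wild-type arrays. It was 3.72-fold lower in sdg8 than in sdg26 (-1.90 ± 0.19, adjusted p = 0.00572), with wild type and the double mutant between the single mutants. AT4G12490 and AT4G12500 were 5.08-fold and 2.98-fold lower (adjusted p = 0.0166 and 0.0124).

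The other 3 runs lay on chromosome 1. The glutathione transferase genes GSTF7, GSTF6 and GSTF5 were 2.07-fold, 1.83-fold and 2.27-fold lower in sdg8 (adjusted p = 0.0259, 0.0488 and 0.0154). AT1G23950, AT1G23960 and AT1G23970 were 2.00-fold, 2.65-fold and 4.65-fold lower (adjusted p = 0.0122, 0.0116 and 0.00182). AT1G78730 and AT1G78750 were 1.85-fold and 2.41-fold lower (adjusted p = 0.0221 and 0.0129). AT1G78760, below background in sdg8, was at least 1.15-fold lower (adjusted p = 0.00245), and another probe of AT1G78730 differed by 0.09. Neighbours in a run can be near-identical copies whose transcripts one probe may read together, which was not tested.

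Of the 15 genes in these runs, CYP71B36, AT1G23970 and AT1G78760 kept their calls without any 1 array. The calls of the other 12 were each lost without at least 1 array. EARLI1 lost its call without sdg26 replicate 2 alone (adjusted p = 0.0510), GSTF5 without either sdg8 array or sdg26 replicate 1 (0.0791 to 0.0887), and AT1G23950 and AT4G12500 without sdg8 replicate 2 or either sdg26 array (0.0696 to 0.0872). GSTF7, AT1G23960, AT1G78730, AT1G78750, AT4G12490 and CYP71B37 lost it without any 1 of the 4 single-mutant arrays (0.0540 to 0.169), CYP71B35 without these or either wild-type array (0.0523 to 0.193) and GSTF6 without any 1 of the 8 arrays (0.0637 to 0.253).

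Some named calls were also lost under other settings. With slide as a random block these were AT3G27473, BCAT4, DPE1, EDS1, ERF104, GSTF6, IBH1 and THI2.1 (adjusted p 0.0542 to 0.0628), and with the replicate number as a block AT3G27473, AT5G39493, BCAT4, CYP79F1, DPE1, ERF104, IBH1 and MRD1 (0.0544 to 0.0886). In a fit of only the 4 single-mutant arrays AT1G03990, AT3G27473, AT5G39493, CYP71B35, CYP71B37, CYP79F1, DPE1, EDS1, ERF104, GSTF6, IBH1, MYB90, THI2.1 and WRKY46 were not called (0.0546 to 0.0927). Quantile normalization lost AT1G03990, GSTF5, MYB90, ST4A and THI2.1 (0.0505 to 0.156), and centring on the median BCAT4, EDS1, GSTF6 and THI2.1 (0.0503 to 0.0587).

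Under normexp with the array's median as background, 19 named calls were lost (adjusted p 0.0520 to 0.550). They were the floral repressor MAF3, the defence and stress genes PR1, EDS1, ERF104, WRKY46, THI2.1 and BIP3, the genes of metabolism and transport CYP79F1, MRD1, MYB90, DPE1, IRT1, MSRB8, GSTF5 and GSTF6, the hormone gene IBH1, and AT1G03990, AT1G78730 and AT1G78760. Taking the mean of a gene's probes lost AT1G78730, AT3G06435, BIP3, DPE1, FUS3, IBH1 and MAF3 (0.0642 to 0.568). No filter on dim probes lost AT3G27473, BCAT4, EDS1, GSTF6 and THI2.1 (0.0504 to 0.0521), and the trend and robust options lost MYB90 and THI2.1 (0.0709 to 0.0874). The calls of SDG8, SDG26, FLC, FLM and FT were kept under each of these settings.

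Of the 647 calls, 79 were kept whichever of the 8 arrays was left out, 12 of them higher and 67 lower in sdg8. Without sdg8 replicate 1 there were 28 higher and 145 lower genes, and without sdg8 replicate 2 there were 33 and 151. Without sdg26 replicate 1 there were 23 and 103, and without sdg26 replicate 2 there were 29 and 92. Every one of the 647 that had a value kept its sign under each of these 4 settings. Where the arrays of the 2 genotypes do not overlap, as in 645 of the 647, leaving out 1 array cannot change the sign. Under normexp correction for the local background limma's test passed 0 genes, with 1134 at an unadjusted p under 0.05, so that no call of this report survived it. A local background of 229880, the highest of all, stood on sdg26 replicate 2, where the median was 26.

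**Figure D5:**
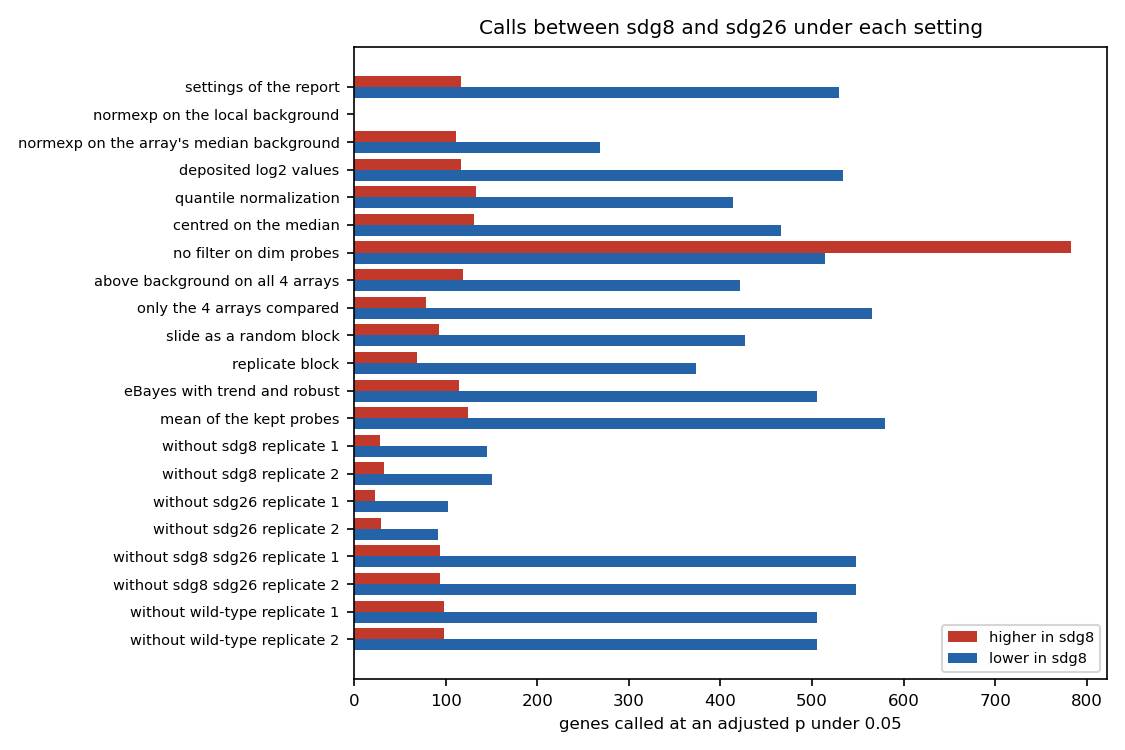
Number of genes called higher (red) and lower (blue) in sdg8 than in sdg26 under the settings of the report and under each alternative. More genes are lower than higher under each alternative but that with no filter on dim probes (783 higher, 514 lower) and that with normexp on the local background (0 and 0).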

How the data were processed

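Each sample was hybridised to 1 single-colour Agilent array, with cRNA from 0.5 ug RNA labelled with Cy3 per the labels. The deposited spot intensities come from Agilent Feature Extraction, whose version the file headers give as 11.5.1.1 and the submitters' processing notes as 9.1. The processed signal intensity has its background subtracted, per the file headers. The authors also deposited log2 values, which differed from those used here by nearly 1 constant per array.

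Each array's processed signals were put on the log2 scale and centred on their 75th percentile over 43803 spots that were not controls, with outlier spots set to missing (23 to 92 per array) and 0 spots saturated. Of 43603 probes, 33822 stood well above background on both sdg8 arrays or both sdg26 arrays and were used. RefSeq accessions stood beside 36098 probes, and 34285 of these (95.0%) could be named through the TAIR10.1 gene table, which also gave neighbour order. The brightest such probe, by its mean over the 4 single-mutant arrays, represented a gene. Of 20461 genes, 2 with no value in a genotype were left out, and 113 of those tested had a missing value.

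Differences were fitted with limma 3.58.1 (lmFit and eBayes, two-sided, R 4.3.3, statmod 1.5.0) over the 8 arrays with genotype as factor, 4 residual and 2.89 prior degrees of freedom. The median standard error was 0.166, and the number of arrays limits the precision. The steps were tested on simulated data. Replicate 1 and 2 deviated together in sdg8 and sdg26 (r = 0.385 across genes, 1 pair of genotypes), and the numbers are not known to pair samples.

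The comparison and the 28 gene lists (654 genes) were chosen with earlier results of these data known. A further 15 members were left out because the table does not pair their names. Named genes were SDG8, SDG26, FLC, FT and SOC1, the 12 largest differences in each direction among called genes with arrays apart, up to 5 per direction with wild type at least 0.5 from and between both mutants, members of runs of 3 or more called neighbours, and, from every list, up to 4 genes with the smallest p. The normexp alternatives used the median spot signal (offset 50) in place of the planned mean signal.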

Additional observations from a re-analysis of the deposited data

Results flagged for a closer look

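Probes that matched no locus stayed outside the comparison by gene. When all 33817 kept probes were fitted together, 241 of 5566 probes without a locus were called between sdg8 and sdg26, 52 higher and 189 lower in sdg8. That was 4.33% of them, against 2.74% of the probes with a locus. This signal lies in data that the comparison by gene did not use, and what these probes read is not known here.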

How the results depend on the processing

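Calls fell to 0 (0 higher, 0 lower) with normexp on the local background and the differences of SDG8 and SDG26 to -2.60 (adjusted p = 0.324) and 1.76 (adjusted p = 0.693). There the sign turned for FT (-0.37), AT2G24780 (-0.33), AT5G39493 (-0.22), AT3G54530 (-0.59), AT2G19960 (-0.38), AT3G27473 (-0.43), FUS3 (-0.57), AT3G06435 (-0.62) and MRD1 (-0.53), while 578 of the 647 calls kept their sign. The cause was not tested. Normexp on the array's median background gave 380 calls, 269 of them lower and 302 of them shared, and no filter on dim probes 1297, of which 783 were higher. The numbers of called genes without 1 array ran from 121 to 642, of higher ones from 23 to 98 and of lower ones from 92 to 548, and fell the most without sdg26 replicate 2 (121), sdg26 replicate 1 (126), sdg8 replicate 1 (173) and sdg8 replicate 2 (184).

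With the replicate number as a block 442 genes were called, 69 higher and 373 lower, of which 417 were shared with the fit without it. The numbers are not known to pair the samples. With slide as a random block 520 genes were called, all of them among the 647. The count stayed within 1.5 times of 647 with the deposited log2 values (651), quantile normalization (547), centring on the median (597), a filter on all 4 arrays (540, or 458 of the 647 in a count added after seeing the data), only the 4 arrays (645), trend and robust (620) and the mean of the probes (704). Other kept probes, 148 in number, were at hand for 127 of the 647 called genes, and in 4 of these genes another probe had the opposite sign. The remaining calls rest on a single kept probe. Signal near background leaves 164 of the calls with at most a bound of their fold, and some, such as THI2.1, with none.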
